A study of Arabidopsis thaliana with 18 samples.

Results

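Non-coding loci that the Araport11 annotation added to the Arabidopsis gene set were examined across leaves exposed to excess light (EL) and across the methylomes of strs2 and WT leaves. Arabidopsis gene numbers climb along each chromosome, and Araport11 gave many of its added loci low numbers wherever on the chromosome they lay. The loci were therefore taken as those whose 5-digit number begins with 0 although the locus starts beyond 7000000 bp, and which were above 1 CPM (the count of a locus scaled to the nuclear counts of its library) in at least 3 of the 12 mRNA libraries. Of 2953 loci numbered in this way, 70 met the level (2.37%), against 17916 of 30099 other nuclear loci (59.5%). The members were chosen by their level in these same libraries, so that their being measured is a description and not a result.

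Transcripts were measured by mRNA-seq in WT plants of the Col-0 ecotype, in 3 libraries each from naïve leaves given an EL trigger (N+T), naïve leaves (N), primed leaves given the trigger (P+T) and primed leaves (P). Priming was a week of recurring EL with 3 exposures a day, and each exposure or trigger was 1 h at 1000 µmol photons per m2 per s. N leaves saw no EL. MethylC-seq gave the DNA methylation of 3 plants each of strs2, a T-DNA insertion line of STRS2, which encodes a DEAD-box RNA helicase, and of WT, both without EL. All plants grew in soil under a 12 h photoperiod of 100 to 150 µmol photons per m2 per s, and leaves 4 to 9 were harvested at an age of 3 weeks from separate plants. No mRNA library came from strs2, so methylation and transcript level were never measured under the same contrast. The tests of transcript level used 10 libraries, without N-r3 and N+T-r3, which the authors also omitted; CPM values are given for all 12.

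Long non-coding RNAs are transcripts that do not encode a protein of appreciable length. Many lie on the strand opposite a protein-coding gene (natural antisense transcripts), and in plants some are known to take part in stress responses, flowering time and hormone signalling. Small nucleolar RNAs (snoRNAs) guide chemical modification of ribosomal RNA, those with box C and box D directing 2′-O-methylation and those of the H/ACA class directing pseudouridylation. U1 is the small nuclear RNA that recognises the 5′ splice site. Mature snoRNAs and U1 carry no poly(A) tail, whereas the libraries were made from poly(A)-selected RNA.

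By the RefSeq annotation of TAIR10.1 the members were 34 lncRNAs, 26 loci of the class misc_RNA, 9 snoRNAs and 1 snRNA (U1.4, AT5G04105). Chromosomes 1 to 5 held 21, 9, 17, 10 and 13 of them. A gene was annotated on the other strand over part or all of 37 members, and in 30 of these it covered at least 50% of the locus. The remaining members comprised 24 that overlapped no gene and had none running the other way from a start within 1000 bp, 6 that started within 1000 bp of a gene running the other way and 3 that overlapped a gene on their own strand.

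The snoRNA members are the shortest, and a neighbouring pair of them that carries box C and box D is shown. The pair is not alone in this, as AT2G08765 also held TGATGA, at position 53, and CTGA, at position 72. TGATGA was absent from AT1G09027, AT1G09467 and AT1G09533. AT1G06233 (AtU31a, chr1:10300351-10300453, + strand) and AT1G06237 (AtsnoR4a, chr1:10300489-10300565, + strand) lie 36 bp apart on one strand, both inside AT1G06227, a lncRNA annotated on the other strand. They are printed 5′ to 3′ with every TGATGA (box C) and CTGA (box D) in capitals, searched on the transcribed strand.
AT1G06233: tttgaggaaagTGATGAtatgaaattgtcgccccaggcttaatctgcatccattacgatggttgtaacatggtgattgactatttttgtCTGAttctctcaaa
AT1G06237: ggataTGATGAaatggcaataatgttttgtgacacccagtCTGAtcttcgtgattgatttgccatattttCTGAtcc
Among stretches of the same length cut from the starts of 33052 nuclear loci, 0.88% and 0.511% held TGATGA followed by CTGA.

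Start windows are shown for 3 members that were called higher in N+T leaves and for AT2G06995, whose methylation differed in strs2. A start window runs from 250 bp before the annotated start to 50 bp within the locus. Capitals in the first 3 mark matches to the core of the heat shock element, the binding site of heat shock factors. It was searched as GAANNTTC and TTCNNGAA, and both read the same on either strand. The match in AT1G09715 begins 2 bp after the annotated start, inside the locus. Whether heat shock factors bind at any of these matches was not tested. AT3G07365 (chr3:16984085-16984384, + strand) lies opposite the small heat shock protein gene HSP17.4, AT3G04615 (chr3:8679486-8679785, - strand) opposite AT3G24020, and AT1G09715 (chr1:22033110-22033409, + strand) starts 63 bp from AT1G59865, which runs the other way.
AT3G07365: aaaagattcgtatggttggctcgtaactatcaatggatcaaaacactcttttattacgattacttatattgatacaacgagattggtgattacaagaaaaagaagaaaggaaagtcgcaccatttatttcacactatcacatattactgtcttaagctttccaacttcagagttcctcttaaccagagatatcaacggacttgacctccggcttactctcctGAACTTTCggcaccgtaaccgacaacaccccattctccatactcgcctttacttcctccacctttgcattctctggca
AT3G04615: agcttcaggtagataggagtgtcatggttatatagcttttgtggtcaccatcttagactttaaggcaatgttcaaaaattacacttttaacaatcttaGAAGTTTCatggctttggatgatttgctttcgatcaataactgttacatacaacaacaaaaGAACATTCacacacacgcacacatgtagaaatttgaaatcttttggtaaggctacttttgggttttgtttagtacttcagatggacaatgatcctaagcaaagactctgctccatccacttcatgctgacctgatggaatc
AT1G09715: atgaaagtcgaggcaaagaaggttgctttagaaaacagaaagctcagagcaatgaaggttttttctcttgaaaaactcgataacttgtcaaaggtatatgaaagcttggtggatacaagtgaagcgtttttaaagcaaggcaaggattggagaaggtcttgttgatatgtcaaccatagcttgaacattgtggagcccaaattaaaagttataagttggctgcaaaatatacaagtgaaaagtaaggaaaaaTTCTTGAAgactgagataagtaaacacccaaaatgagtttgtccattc
GAANNTTC occurred in 3 of the 9 members that were higher on triggering, in 11 of the 70 members, in 11.6% of 33050 start windows of nuclear loci and in 17.6% of those of all loci called higher in N+T leaves. TTCNNGAA occurred in 2 of the 9 (AT1G08973 and AT1G09715), in 9 of the 70, in 9.36% of all windows and in 12.8% of those of the loci called higher. In AT2G06995 (chr2:7632964-7633263, + strand) the capitals mark the CG dinucleotides, where methylation is read on both strands.
AT2G06995: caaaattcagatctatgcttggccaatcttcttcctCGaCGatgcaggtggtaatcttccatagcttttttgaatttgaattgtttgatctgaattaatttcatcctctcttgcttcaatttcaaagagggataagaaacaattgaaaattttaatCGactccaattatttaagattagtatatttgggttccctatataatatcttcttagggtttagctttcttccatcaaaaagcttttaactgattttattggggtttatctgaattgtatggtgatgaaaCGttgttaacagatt

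Most members were short and weakly transcribed. Their median length was 772 bp and their median level 2.34 RPKM (CPM divided by length in kilobases), against 2462 bp and 6.41 RPKM over all 17986 loci tested. Only AT3G06365 averaged above 20 CPM, 59 members averaged under 5 CPM, and 12 were above 1 CPM in all 12 libraries. Just inside the level set by the rule, the library of the 3rd highest level had 1.04 CPM for AT4G09215 and AT3G08565 and 1.13 CPM for AT2G00790; just outside it had 0.9997 CPM for AT4G06980, 0.959 CPM for AT1G06473 and 0.949 CPM for AT4G06175. Of the 2953 loci numbered in this way, 1802 had no count in any library.

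On the RPKM scale, which allows levels of different loci to be set side by side, AT3G06365 was the highest member at 894 RPKM. It was followed by U1.4 and the snoRNA AT1G09027 (AtsnoR102), both at 38.5 RPKM, the snoRNA AT1G09467 (snoR115-1) at 30.8 RPKM, AT3G06355 at 21.5 RPKM, AT5G07745 at 17.8 RPKM and the snoRNA AT2G08765 (snoR149) at 17.6 RPKM. The snoRNAs AT4G09845, AT1G06237 and AT1G06233 stood at 12.2, 11.9 and 10.8 RPKM, so 6 of the 10 highest members were snoRNAs. These means rest in part on N-r1, described next: without it AT3G06365 averaged 183 RPKM, U1.4 6.46 RPKM and AT5G07745 1.24 RPKM, so that U1.4 stood at rank 13 and AT5G07745 at rank 54, and the other members just named kept their order. AT1G09027 was the steadiest of these, with 4.84, 4.92 and 4.64 CPM in N+T leaves, 6.04, 4.21 and 4.66 CPM in N leaves, 5.64, 5.71 and 4.99 CPM in P+T leaves and 4.35, 6.08 and 4.36 CPM in P leaves. The P+T libraries all lay above the N+T libraries (log2 fold change of 0.13 ± 0.27, FDR = 0.800), and the groups of the other contrasts overlapped. With counts taken over the whole locus, a short locus such as a snoRNA ranks higher per kilobase than in CPM.

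The library N-r1 stood apart from the others at a group of members. AT3G06365 (chr3:14200215-14204208) lies 299 bp from the ribosomal RNA genes annotated on chromosome 3, and AT3G06355 and AT3G06325 lie over or beside the same genes. AT3G06365 reached 29100 CPM in N-r1, or 2.91% of all nuclear counts of that library, against 326 to 2036 CPM in the other 11 libraries. Counts on the rRNA, chloroplast and mitochondrial loci, left out of the tests, were 2.56% of the total in N-r1 and at most 0.211% elsewhere. Only loci annotated as rRNA were left out in this way, and AT3G06365 stayed in the tests. Whether its counts are reads of ribosomal RNA was not tested.

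Other members were high in the same library. AT5G07745 had 70.2 CPM in N-r1 and at most 3.06 CPM elsewhere, and U1.4 had 53.5 CPM in N-r1 and at most 3.57 CPM elsewhere. The 9 snoRNAs summed to 32.7 CPM in N-r1 and to between 9.71 and 19.7 CPM in the other libraries. AT5G07745 holds a copy of U1.4: sequence of at least 90% identity over at least 50% of a member was found elsewhere in the genome for 11 members, 9 copies of U1.4 among them. AT3G06355 was 99.4% identical to sequence at AT2G01020 on chromosome 2, and AT3G06365 99.2% identical to sequence there that includes AT2G01021. Reads from such copies may be lost or assigned to either locus. Library totals were between 3665503 counts in N+T-r3 and 33081543 counts in P-r3.

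**Figure D1:**
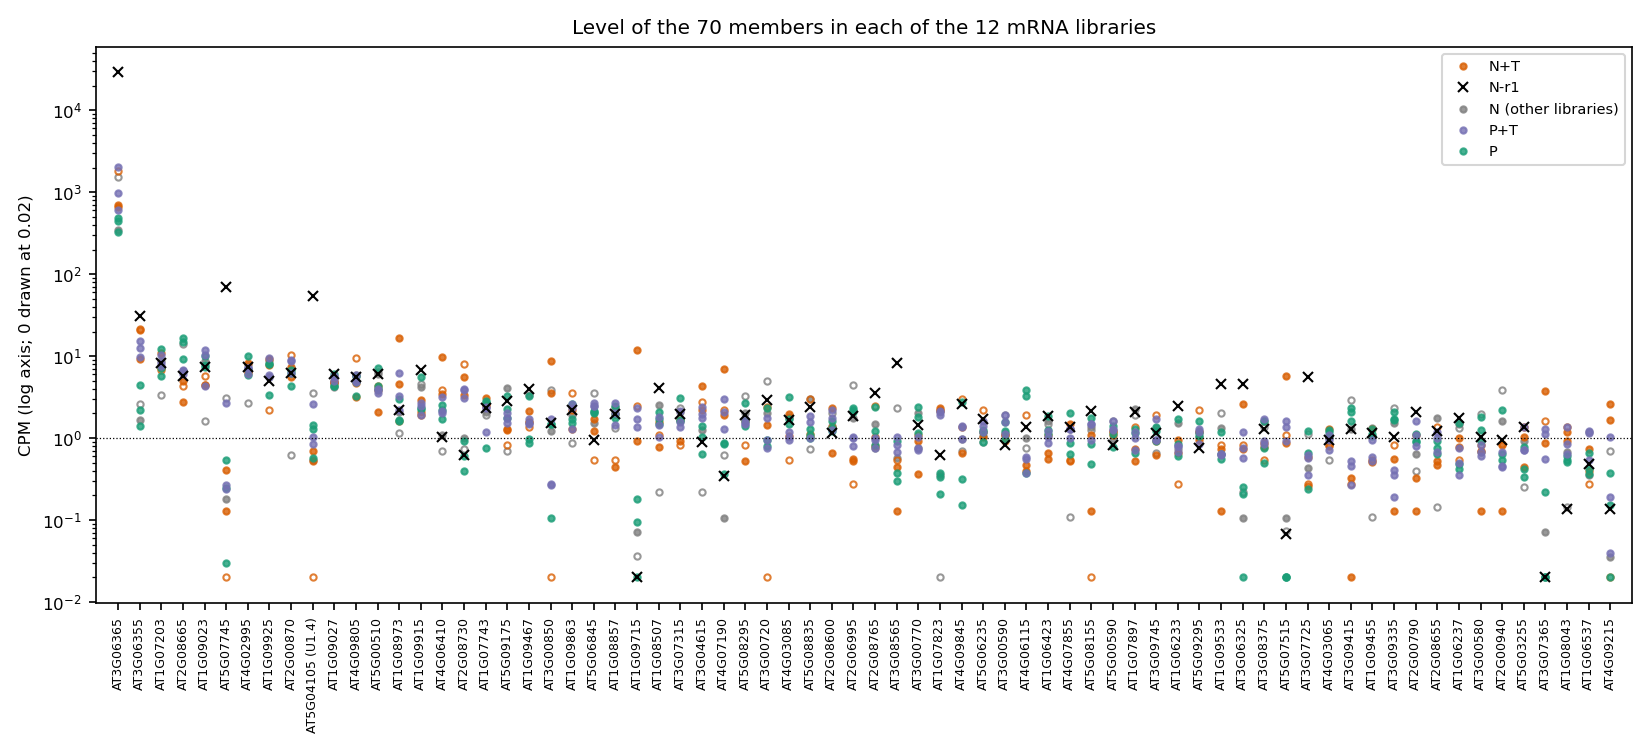
Level of each of the 70 members (x axis, ordered by mean level) in the 12 mRNA libraries, in CPM on a log axis with 0 drawn at 0.02. Colours give the group, open points are N-r3 and N+T-r3, crosses are N-r1 and the dotted line is 1 CPM; N-r1 lies far above the other libraries at AT3G06365 (29100 CPM), AT5G07745 (70.2 CPM) and U1.4 (53.5 CPM).

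The first comparison asked which members respond to a single EL trigger in naïve leaves. At a false discovery rate (FDR) below 0.05 in the quasi-likelihood test of edgeR, adjusted over all 17986 loci, 9 members were higher and 3 lower in N+T than in N leaves. That is 12 of 70 (17.1%), and among all loci tested 15.2% were called, 7.74% higher and 7.43% lower, so the share among the members was near that of all loci. The rule on level bears on these calls: 6 of the members called higher passed it only through libraries of triggered leaves, so those had to differ between triggered and untriggered libraries. The median log2 fold change of the 70 members was -0.48, with 44 of them negative, against -0.0042 over all loci, and without N-r1 it was -0.052 with 35 negative. A lower amount of a transcript in whole leaves can mean fewer cells that make it or less of it per cell, which cannot be told apart here.

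AT1G07823 and AT2G08730, both annotated as natural antisense transcripts, showed the steadiest rise. AT1G07823 (1307 bp, opposite the rhomboid-like gene RBL5) had 2.36, 2.16 and 2.18 CPM in N+T leaves and 0.618, 0.357 and 0 CPM in N leaves, with a log2 fold change of 2.41 ± 0.40 (SE, FDR = 0.0119). AT2G08730 (687 bp, opposite AT2G35420) had 5.50, 3.37 and 7.92 CPM in N+T leaves and 0.618, 1.00 and 0.728 CPM in N leaves, with a log2 fold change of 2.59 ± 0.45 (FDR = 0.0137). For both, every N+T library lay above every N library, the libraries left out of the test included. Both had passed the rule on level only through triggered libraries, so this separation is in part set by that rule. The next gene upstream of AT1G07823 on its strand, AT1G52590, ends 85 bp before it and was higher as well (log2 fold change of 1.38, FDR = 0.0247), whereas AT2G35410, 161 bp before AT2G08730, was not called (-0.18, FDR = 0.493).

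AT4G06410 and AT4G07190 followed with wider spread among the N+T libraries. AT4G06410 (1092 bp, opposite AT4G16670) had 9.68, 3.49 and 3.82 CPM in N+T leaves and 1.03, 1.11 and 0.691 CPM in N leaves (log2 fold change of 2.79 ± 0.51, FDR = 0.0152). AT4G07190 (760 bp) lies opposite NdhS, which encodes a subunit of the chloroplast NADH dehydrogenase-like complex of cyclic electron flow. It had 6.93, 1.91 and 2.18 CPM in N+T leaves and 0.343, 0.107 and 0.618 CPM in N leaves (log2 fold change of 4.56 ± 0.90, FDR = 0.0182). In both the groups were apart, for AT4G07190 in part through the rule on level. N+T-r1 was the highest N+T library of both.

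AT1G09715, AT3G07365 and AT5G07515 were nearly absent from N leaves, and for these the ratio of summed counts in the 4 naïve libraries tested is given with its exact 95% interval, which covers counting error only. AT1G09715 (961 bp) had 117 counts in the N+T libraries and 2 in the N libraries, a ratio of 71.4 (19.3 to 596) after scaling to depth (FDR = 0.0262). Its nearest upstream gene on the same strand, 1110 bp away, is AT1G59860, a small heat shock protein gene with 406 CPM in N+T leaves and 3.23 CPM in N leaves, which was itself not called (log2 fold change of 7.19 ± 2.33, FDR = 0.0677). AT3G07365 (453 bp), wholly opposite HSP17.4, had 53 counts in the N+T libraries and 2 in the N libraries, a ratio of 32.3 (8.52 to 274, FDR = 0.0415).

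AT5G07515 (236 bp, opposite AT5G49920) had 68 counts in the N+T libraries and 4 in the N libraries, a ratio of 20.7 (7.74 to 78.3, FDR = 0.0317). It starts 416 bp after the end of cpHsc70-2, which encodes a plastid heat shock protein of the Hsp70 family and was higher in N+T leaves with a log2 fold change of 1.70 (FDR = 0.0139). For all 3, N+T-r1 was by far the highest library. AT1G09715 had 12.0, 0.917 and 2.46 CPM in N+T leaves, AT3G07365 had 3.79, 0.880 and 1.64 CPM and AT5G07515 had 5.76, 0.880 and 1.09 CPM, and no N library was above 0.107 CPM for any of them. Without N+T-r1 the ratios were 19.5 (4.87 to 170), 18.7 (4.65 to 164) and 9.37 (3.22 to 37.2).

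AT1G08973 (1882 bp) and AT3G04615 (832 bp) completed the group of members called higher. AT1G08973, opposite the nuclease gene ENDO2, had 16.7, 4.55 and 1.64 CPM in N+T leaves and 2.2, 2.07 and 1.16 CPM in N leaves (log2 fold change of 2.50 ± 0.68, FDR = 0.0431); with N+T-r3 the groups overlapped. AT3G04615 had 4.32, 2.2 and 2.73 CPM in N+T leaves and 0.892, 1.25 and 0.218 CPM in N leaves (log2 fold change of 1.74 ± 0.47, FDR = 0.0433), and here the groups stayed apart.

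The members called lower were AT2G06995, AT5G09175 and the snoRNA AT1G07897. AT2G06995 (856 bp), a lncRNA that overlaps no other gene, had 0.523, 0.550 and 0.273 CPM in N+T leaves and 1.85, 1.79 and 4.51 CPM in N leaves (log2 fold change of -1.58 ± 0.31, FDR = 0.0180). AT5G09175 (2435 bp) lies opposite SAL2, a paralog of the phosphatase gene SAL1 that acts in chloroplast retrograde signalling. It had 1.31, 1.25 and 0.819 CPM in N+T leaves and 2.81, 4.07 and 0.691 CPM in N leaves (log2 fold change of -1.27 ± 0.34, FDR = 0.0419), and N-r3, which was not in the test, lay below all 3 N+T libraries. AT1G07897 had 0.523, 0.734 and 1.37 CPM in N+T leaves and 2.06, 2.29 and 1.89 CPM in N leaves (log2 fold change of -1.58 ± 0.43, FDR = 0.0432). It lies 217 bp downstream of the small heat shock protein gene AT1G53540 on the same strand, which had 733 CPM in N+T leaves and 9.36 CPM in N leaves and was not called (log2 fold change of 6.53 ± 2.44, FDR = 0.0968).

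The other 58 members had log2 fold changes between -6.62 and 4.91, and 13 of them had an FDR below 0.1. The ends of that range were AT5G07745 (FDR = 0.0896), which was high in N-r1, and AT4G09215 (FDR = 0.0663), which had 66 counts in the N+T libraries and 3 in the N libraries, a ratio of 26.8 (8.79 to 133). AT4G09215 had 2.62, 1.69 and 0 CPM in N+T leaves and 0.137, 0.0357 and 0.691 CPM in N leaves, so that its groups overlapped once N+T-r3 and N-r3 were taken in.

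Single libraries decided how many members were called. The share of all loci called with the same libraries is not given, so these counts do not describe the members alone. None of the 70 was called when N-r1, N-r2 or N+T-r1 was left out, each of which leaves a group with 1 library whose spread is then taken from the other groups. Leaving out N+T-r2 also leaves 1 library in its group, and there most of the calls stayed. With N-r1 left out and N-r3 and N+T-r3 taken in, 4 members were called, and AT2G06995, AT2G08730 and AT4G06410 were among them.

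**Figure D2:**
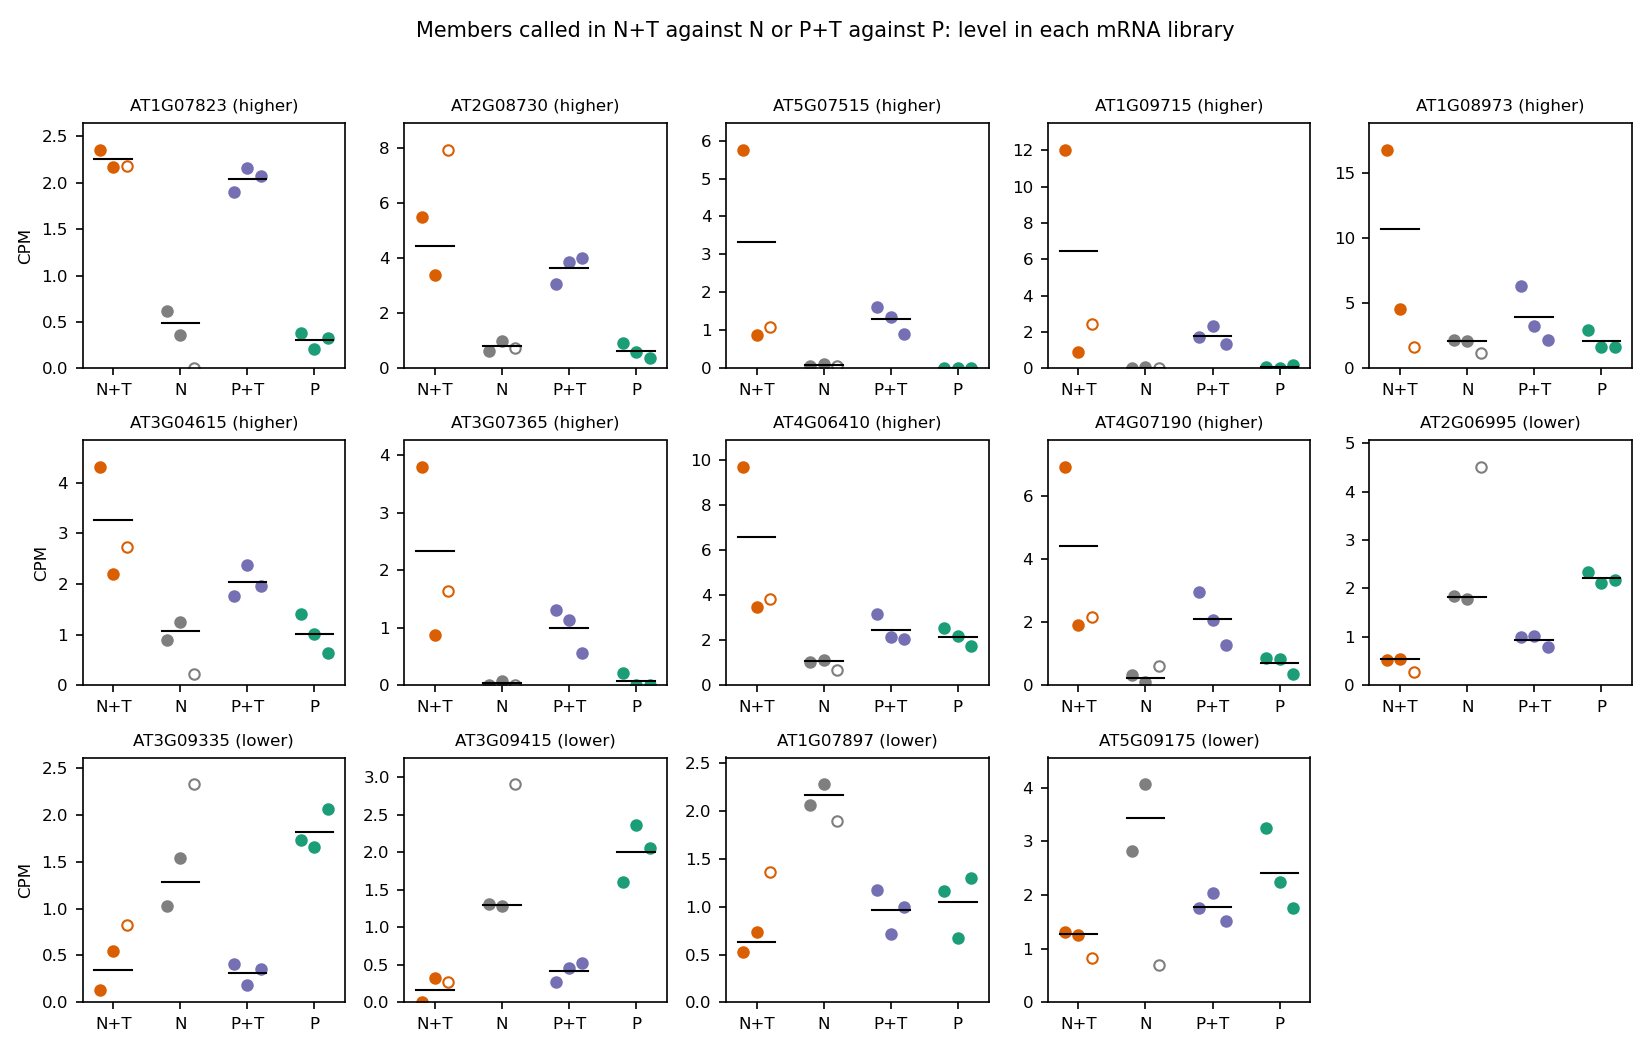
Level in CPM (y axis from 0) of the 14 members called in N+T against N or in P+T against P, in each library of the N+T, N, P+T and P groups. Points are libraries, bars the mean of the libraries tested, and open points the libraries left out of the test (N+T-r3 and N-r3). The direction named in each panel is that of the triggered leaves. All triggered libraries lie above all untriggered ones for AT1G07823, AT2G08730, AT1G09715, AT3G04615, AT3G07365, AT4G07190 and AT5G07515. They lie below all untriggered ones for AT2G06995, AT3G09335 and AT3G09415. Apart from AT3G04615 and AT2G06995, these members passed the rule on level only through the libraries in which they were higher. Their separation is therefore in part set by that rule.

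The same question was then put to primed leaves. In P+T against P, 3 members were higher and 3 lower, that is 6 of 70 (8.57%), and among all loci tested 4.48% were called, 2.05% higher and 2.44% lower. All 3 members called higher had passed the rule on level only through triggered libraries, and of those called lower AT3G09335 and AT3G09415 only through untriggered ones, so these too had to differ. The median log2 fold change of the members was 0.13, with 30 of the 70 negative, against -0.011 over all loci.

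AT1G07823 and AT2G08730 were again the steadiest of the members that rose. AT1G07823 had 1.89, 2.16 and 2.08 CPM in P+T leaves and 0.378, 0.211 and 0.333 CPM in P leaves (log2 fold change of 2.74 ± 0.32, FDR = 0.00713). AT2G08730 had 3.07, 3.86 and 3.99 CPM in P+T leaves and 0.914, 0.598 and 0.393 CPM in P leaves (log2 fold change of 2.56 ± 0.36, FDR = 0.0112). AT5G07515 had 95 counts over the P+T libraries and none over the P libraries, which makes it at least 40.1-fold higher in P+T leaves against a floor of 3 counts over the group (FDR = 0.0286). The neighbour of AT5G07515, cpHsc70-2, was higher there too (log2 fold change of 1.75, FDR = 0.0109).

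AT2G06995 was called lower in primed leaves as it was in naïve ones, with 0.993, 1.02 and 0.799 CPM in P+T leaves and 2.33, 2.11 and 2.18 CPM in P leaves (log2 fold change of -1.21 ± 0.23, FDR = 0.0268). AT3G09335 (1404 bp) had 0.406, 0.189 and 0.359 CPM in P+T leaves and 1.73, 1.65 and 2.06 CPM in P leaves (log2 fold change of -2.50 ± 0.44, FDR = 0.0232). AT3G09415 (783 bp) had 0.271, 0.454 and 0.519 CPM in P+T leaves and 1.61, 2.36 and 2.06 CPM in P leaves (log2 fold change of -2.25 ± 0.51, FDR = 0.0479). The groups of all 3 were apart, and in N+T against N the last 2 had log2 fold changes of -1.53 (FDR = 0.0910) and -2.35 (FDR = 0.0577). With P+T-r3 left out 1 member was called, and with P-r1 left out 10 were called. The share of all loci is not given for either.

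Over both responses, 4 members were called in both, 8 in N+T against N only, 2 in P+T against P only and 56 in neither. These counts do not show that a response differed between naïve and primed leaves, which the interaction tests below. AT1G08973 had a log2 fold change of 0.94 in primed leaves (FDR = 0.345), AT3G04615 of 1.03 (FDR = 0.153), AT4G07190 of 1.62 (FDR = 0.167) and AT4G06410 of 0.21 (FDR = 0.803). AT1G09715 and AT3G07365 were at 4.19 (FDR = 0.0723) and 3.72 (FDR = 0.0908) there, AT5G09175 at -0.40 (FDR = 0.421) and AT1G07897 at -0.10 (FDR = 0.891).

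**Figure D3:**
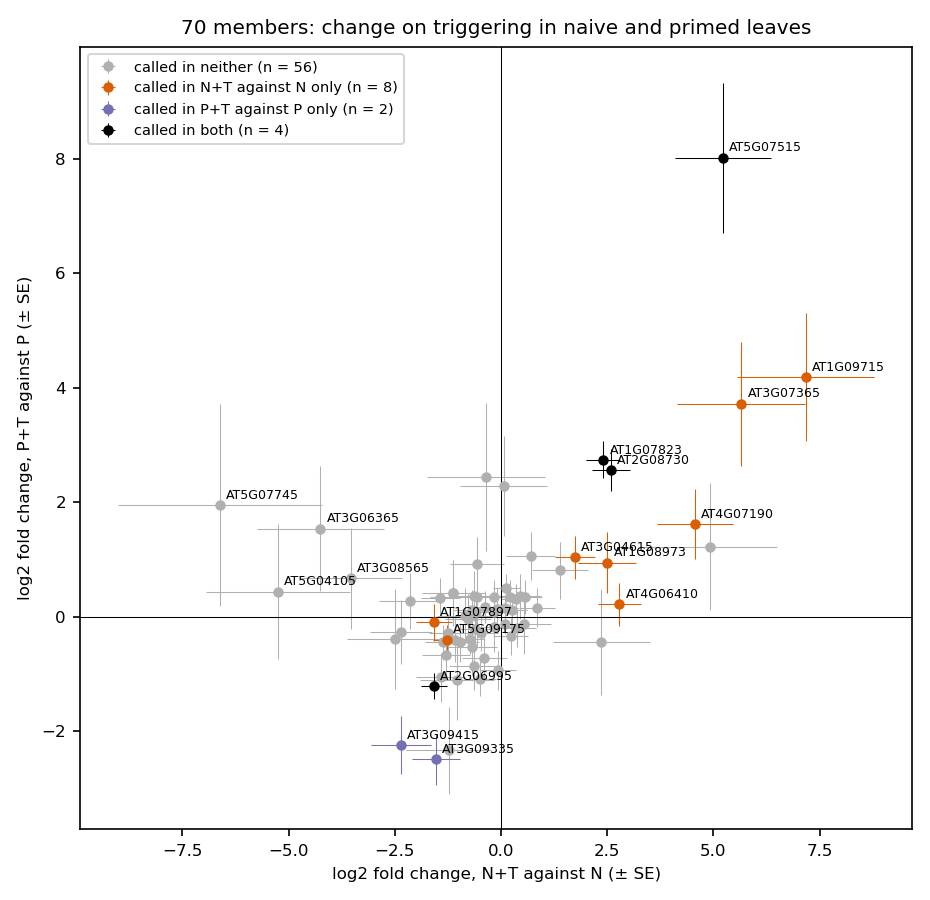
Log2 fold change of the 70 members in P+T against P (y axis) and in N+T against N (x axis), with bars of 1 SE in each direction. Colours give the response in which a member was called; AT1G07823 and AT2G08730 lie close to equal values on both axes, AT4G06410 has 0.21 in primed and 2.79 in naïve leaves, and AT5G07745, AT3G06365, AT3G08565 and U1.4 at the far left were highest in N-r1.

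Priming itself was tested in leaves without a trigger and in triggered leaves. In P against N no member and none of the 17986 loci was called (0%); unadjusted p was below 0.05 for 12 members and 1576 loci, and DESeq2 called 1 member higher and 3 lower (5.71%), against 1.9% of all loci. The smallest unadjusted p belonged to AT3G06365, with a log2 fold change of -5.03 ± 1.31 that became 0.40 without N-r1, and among those with small p AT5G07745 had -6.92 with that library and 0.66 without it. AT2G08665, the antisense transcript of the light-harvesting gene LHB1B2, had 9.33, 16.8 and 15.0 CPM in P leaves and 5.76, 6.64 and 14.1 CPM in N leaves. Its log2 fold change was 1.30 ± 0.35 (FDR = 0.340), and N-r3, outside the test, had a level between those of P-r1 and P-r3.

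In P+T against N+T no member and no other locus was called either (0%), with unadjusted p below 0.05 for 7 members and 3595 loci and no member called by DESeq2, which called 4.17% of all loci. AT4G06410 had the smallest p, with 3.16, 2.16 and 2.04 CPM in P+T leaves and 9.68, 3.49 and 3.82 CPM in N+T leaves (log2 fold change of -1.46 ± 0.42, FDR = 0.198). The P+T libraries all lay below the N+T libraries. AT2G00790 (log2 fold change of 2.13) and AT3G00850 (-3.11) came next, both at FDR = 0.204, and N+T-r3 was above 2 of the 3 P+T libraries for AT2G00790 and below all of them for AT3G00850.

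The interaction asks whether the trigger acts differently in primed than in naïve leaves. No member was called, against 1 of 17986 loci (0.00556%); unadjusted p was below 0.05 for 10 members and 3006 loci, and DESeq2 called 3 members higher and 1 lower (5.71%), against 4.19% of all loci. AT4G06410 had the smallest p, with an interaction of -2.58 ± 0.63 on the log2 scale (FDR = 0.195). Primed leaves without a trigger already held 2.52, 2.18 and 1.72 CPM of AT4G06410, about the level of P+T leaves and above all 3 N libraries. AT3G06365 came next at 5.79 ± 1.83 (FDR = 0.223), which became 0.36 without N-r1, and then AT2G08655, opposite the protein kinase gene CIPK13, at 1.77 ± 0.57 (FDR = 0.228) and at 0.73 with all 12 libraries. Among the members called in the responses, AT4G07190 had an interaction of -2.95 ± 1.06 (FDR = 0.243) and AT1G07897 of 1.47 ± 0.54 (FDR = 0.246). For AT1G07823 it was 0.33 ± 0.50 and for AT2G08730 it was -0.025 ± 0.61, each within its SE of 0.

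Antisense transcripts can be read against the gene they overlap. Because the libraries were stranded and counted by strand, reads of the 2 partners are separate, apart from reads copied from the wrong strand, whose share was not measured. The share of each pair held by the member was computed from RPKM values. It was above 90% in 17 of 37 pairs, between 10% and 90% in 12 and below 10% in 8. None of the partners in the first class reached the level for testing, their highest mean being 0.0485 RPKM, so each was nearly silent in leaves. The partner covered only part of AT4G03085, AT1G09915, AT3G09335, AT3G00720 and AT2G08600, from 9.36% to 31.1% of the member. As counts were taken over whole loci, they do not show that a member was transcribed across its partner. Partners of AT1G07897, AT3G09335, AT4G03085 and AT1G09915 had no count in the 10 libraries, and the shares of AT1G09027, AT1G06237, AT1G06233 and AT3G04615 were between 99.85% and 99.98%. AT1G07823, AT2G08730, AT3G04615 and AT5G07515 belong to this class, with 99.3%, 99.3%, 99.9% and 99.8% of their pairs. Over libraries the lowest shares of AT1G07823, AT2G08730 and AT3G04615 were 86.9%, 96.03% and 98.1%, and AT5G07515 ran from 0 in P-r1 and P-r2, where it had no count, to 100%. Each was called higher in N+T leaves, and they are named here for that reason. AT1G07897 of the same class was called lower, and most of the class was not called. Among all loci tested 15.2% were called.

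At the other end stood AT2G08665, with 0.109% of its pair with LHB1B2 (range over libraries 0.0804% to 0.153%), AT3G07365 with 0.512% of its pair with HSP17.4 (0 to 3.40%) and AT4G07190 with 2.19% of its pair with NdhS (0.157% to 13.1%). AT3G07315 held 10.3% of its pair with HTB9, a histone H2B gene, and its range of 8.67% to 14.1% was narrow. At such shares a small rate of wrong-strand reads from the partner could reach the member's level, which was not tested. HSP17.4 had 1455 and 262 CPM in N+T leaves and 16.3 and 3.36 CPM in N leaves in the libraries tested, a log2 fold change of 6.68 ± 2.16 (FDR = 0.0679), beside 3.79 and 0.880 CPM of AT3G07365 in N+T leaves and 0 and 0.0714 CPM in N leaves.

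The ratio of member to partner was tested in the 19 pairs in which both had enough counts, with limma over 1940 opposite-strand pairs of the genome. In N+T against N the ratio changed in 3 of the 19 (15.8%), against 18.4% of all such pairs. The ratio of AT4G07190 to NdhS was higher in N+T leaves by 4.37 ± 0.94 on the log2 scale (FDR = 0.0210). NdhS itself had 63.7 and 91.5 CPM in N+T leaves and 92.2 and 94.4 CPM in N leaves and was not called (log2 fold change of -0.10, FDR = 0.881). AT4G07190 had passed the rule on level only through triggered libraries, so a rise against a steady partner is in part set by that rule.

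The other ratios that changed fell. That of AT5G03255 to AT5G20940 was lower by 5.35 ± 1.28 (FDR = 0.0274), with AT5G20940 at 5.89 and 3.71 CPM in N+T leaves and 0.0686 and 0.321 CPM in N leaves (log2 fold change of 4.60, FDR = 0.0323) and AT5G03255 at 1.05 and 0.440 CPM in N+T leaves and 1.37 and 0.928 CPM in N leaves. That of AT5G09175 to SAL2 was lower by 3.59 ± 1.06 (FDR = 0.0457), with SAL2 at 10.9 and 42.4 CPM in N+T leaves and 6.04 and 3.50 CPM in N leaves (FDR = 0.116). With all 12 libraries only AT4G07190 of the 3 kept its call (3.7, FDR = 0.0267), and AT5G03255 was at -2.21 (FDR = 0.496) and AT5G09175 at -1.09 (FDR = 0.684). No ratio was called without N-r1, N-r2 or N+T-r1.

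In P+T against P none of the 19 ratios was called, against 3.92% of all pairs. The ratio of AT4G07190 to NdhS was 1.82 higher on the log2 scale (FDR = 0.237) and that of AT5G09175 to SAL2 1.49 lower. Member and partner had log2 fold changes of the same sign in 9 of the 19 pairs in N+T against N and in 11 in P+T against P. In no pair were both called. In N+T against N the member alone was called in 5 and the partner alone in 2. In P+T against P the partner alone was called in 2. Such counts are not given for the 1940 opposite-strand pairs of the genome. Those of the 19 pairs therefore do not show whether member and partner changed independently.

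**Figure D4:**
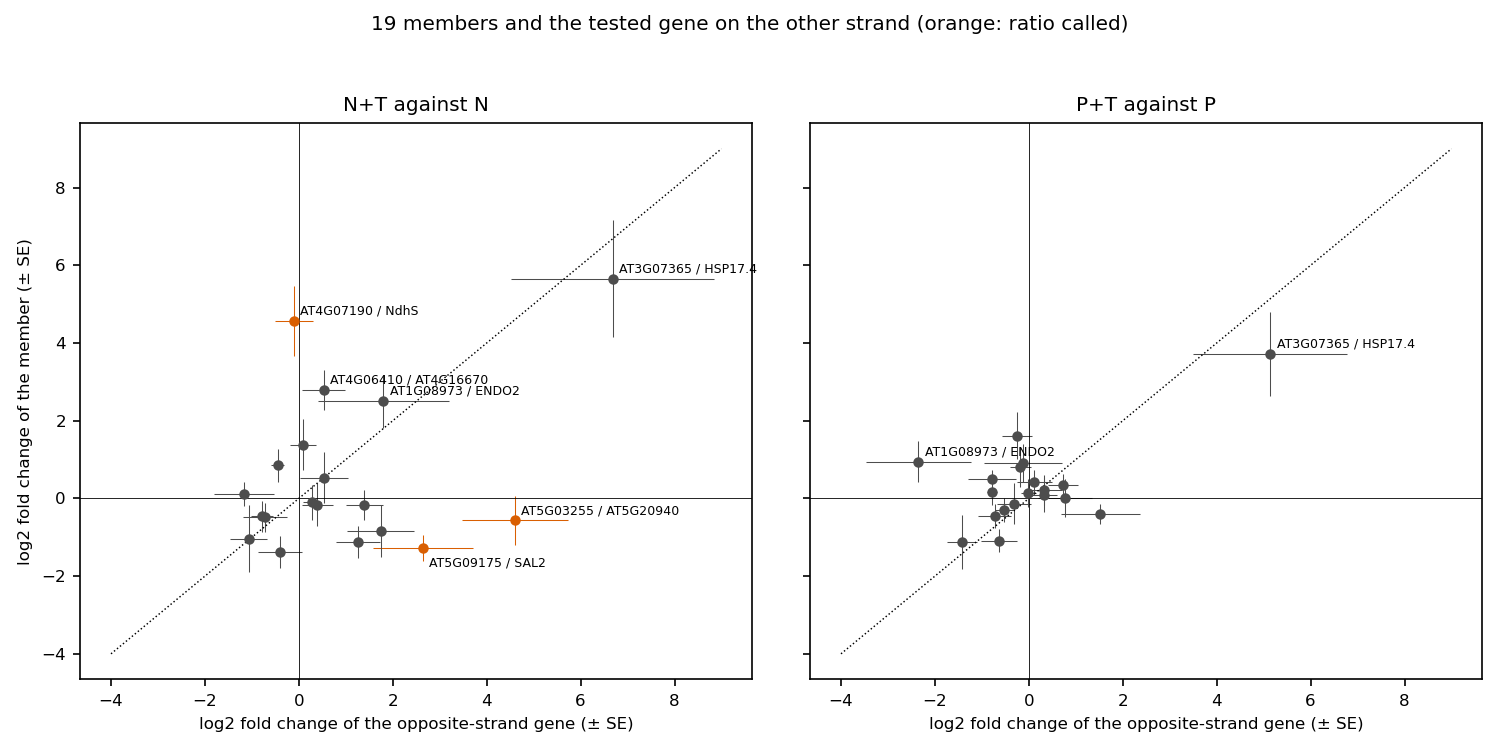
Log2 fold change of the member (y axis) against that of the gene on the other strand (x axis), with bars of 1 SE, for the 19 pairs in which both were tested, in N+T against N (left) and P+T against P (right). The dotted line marks equal changes and orange points are pairs whose ratio was called. AT4G07190 lies at 4.56 with NdhS at -0.10, and AT3G07365 lies below the line with HSP17.4. The ratio of the latter pair was not called in either response. On the log2 scale it was lower by 1.31 ± 1.19 in N+T leaves (limma FDR = 0.449) and by 2.69 ± 0.97 in P+T leaves (limma FDR = 0.178).

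The trigger and the tissue were checked with genes listed from general knowledge. APX2, an ascorbate peroxidase gene that responds to EL, was at 4.72 CPM in N+T leaves and 0 CPM in N leaves (FDR = 0.0301) and at 3.77 CPM in P+T leaves and 0.104 CPM in P leaves (FDR = 0.0506). ELIP1, HSP101 and ZAT10 were not called in either response, with FDR of at least 0.0816, and ELIP2 was below the level for testing. Light-harvesting and Rubisco genes were at 505 CPM or more in every library, while the root gene IRT1 and the seed gene CRU3 had no count, the seed gene SESA1 and the flower gene AP1 reached 0.137 and 0.0714 CPM and the flower gene AG 0.961 CPM. Of the leaf cell type genes, the epidermal ATML1 had 40.8 CPM in N+T leaves and 107 CPM in N leaves (log2 fold change of -1.21, FDR = 0.0521), and the guard cell genes MYB60 and FAMA had log2 fold changes of -0.57 (FDR = 0.117) and -0.19 (FDR = 0.557); the part of cell types in the results was not tested. Of 14 non-coding RNAs known in Arabidopsis, 7 were tested, and the trans-acting siRNA precursors TAS1B, TAS1C and TAS2 were lower in N+T than in N leaves by 1.31, 1.43 and 1.36 on the log2 scale; in P+T against P TAS1C alone was called (-0.95, FDR = 0.0374).

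Methylation of the members was compared between strs2 and WT plants, to see where the mutation alters it. STRS2 has been placed in RNA-directed DNA methylation, by which small RNAs guide methylation to cytosines of any context. CG, CHG and CHH levels (H being A, C or T) were computed over the body of each member from all calls, and 62, 65 and 69 members had at least 30 calls in each of the 6 plants. The median CG level of the members in WT was 1.28%, against 2.85% over all loci and 8.22% over the loci tested for transcript level. AT1G07823 was the most methylated in CG context, with 67.9%, 67.9% and 65.0% in strs2 and 60.3%, 59.9% and 53.5% in WT (FDR = 0.0848), and AT5G09175 had 41.5%, 41.4% and 39.8% in strs2 and 35.2%, 36.2% and 32.1% in WT (FDR = 0.0682). Both had at most 1.03% in CHG and CHH context.

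Members with methylation in all contexts in both genotypes included AT3G06365, next to the rRNA genes of chromosome 3, and AT2G00790 on chromosome 2. AT3G06365 had 53.6%, 56.9% and 53.7% CG in strs2 and 52.2%, 49.8% and 46.5% CG in WT, with 21.1% CHG in strs2 and 19.5% CHG in WT on average. AT2G00790 had mean levels of 27.3% CG, 16.4% CHG and 5.83% CHH in strs2 and 22.2% CG, 12.4% CHG and 5.19% CHH in WT. AT3G06355 and AT3G06325, over or beside the same rRNA genes, had 46.0% and 39.6% CG in strs2 and 44.6% and 41.1% CG in WT, with 15.2% and 11.9% CHG in strs2 and 14.0% and 12.0% CHG in WT. By WT level AT3G00850 was highest in CHH context, with 7.35% in strs2 and 6.27% in WT, followed by AT1G09925 with 4.86% in strs2 and 5.85% in WT. None of these differences was called.

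In CG context 4 members were higher and 2 lower in strs2 than in WT, 6 of 62, with 5.68% of all 31637 loci called (2.7% higher and 2.98% lower). AT2G06995 had 19.9%, 22.7% and 13.0% in strs2 and 1.2%, 2.22% and 0.444% in WT (FDR = 0.0117). AT3G04615 had 32.6%, 30.1% and 29.0% in strs2 and 16.2%, 17.4% and 21.9% in WT (FDR = 0.0262). AT1G06423, opposite the phloem protein gene PP2-A9, had 8.05%, 3.21% and 7.66% in strs2 and 0.667%, 0 and 0.398% in WT (FDR = 0.0379). The strs2 plants of all 3 lay above the WT plants.

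The remaining differences were of a few percentage points. AT4G03085 had 1.37%, 1.05% and 2.10% in strs2 and 0.166%, 0.222% and 0.241% in WT (FDR = 0.0406). AT2G08730 had 0.667%, 0.375% and 0.485% in strs2 and 5.17%, 3.96% and 6.61% in WT (FDR = 0.0118), and AT3G07315 had no methylated call in strs2 and 1.23%, 1.83% and 0.985% in WT (FDR = 0.0103). With 0.5 calls added to each state, which steadies levels near 0, these 6 stayed called among 8 members. With a plant left out, between 1 and 4 members were called.

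AT2G06995 was the one member that differed in every context. Its WT levels in CHG and CHH context were near 0, where the test made false calls on simulated data. Its CHG level was 26.1%, 24.2% and 15.7% in strs2 and 0.885%, 0 and 0.313% in WT (FDR = 0.0348), where 1 of 65 members and 0.26% of all 31542 loci were called (0.136% higher and 0.124% lower). Its CHH level was 9.10%, 11.8% and 8.67% in strs2 and 0.493%, 0.668% and 0.463% in WT (FDR = 0.0383), and it was the sole locus of 32646 to be called in CHH context (0.00306%). With a plant left out, its FDR ran from 0.0275 to 0.0578 for CG, from 0.0342 to 0.117 for CHG and from 0.0322 to 0.177 for CHH sites, with the direction and every strs2 plant above every WT plant kept.

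The methylated stretch of AT2G06995 ran over its start. From 600 bp before to 499 bp after the start, limits drawn after the profile was seen, the CG level was 70.0%, 78.1% and 55.9% in strs2 and 1.08%, 4.21% and 0.763% in WT. The CHG level there was 34.6%, 37.4% and 25.5% in strs2 and 0.823%, 0.851% and 0.536% in WT, and the CHH level was 14.7%, 21.5% and 13.8% in strs2 and 0.987%, 0.615% and 1.2% in WT. The sequence on either side had 0 to 1.17% in all contexts and plants, as follows from limits drawn in this way. In the last 100 bp inside them the CHG level was 18.8%, 6.06% and 11.1% and the CHH level 0, 8.72% and 7.27% in strs2. Of the CG sites in capitals in the start window printed above, those at 214, 211 and 94 bp before and 35 bp after the start each had between 50.0% and 100% of calls methylated in the strs2 plants and between 0 and 16.7% in the WT plants, on 5 to 24 calls a site.

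AT2G06995 was thus called lower in triggered leaves of both histories and more methylated in strs2. As strs2 had no mRNA library, whether its level differs in strs2 was not measured. The gene downstream, TRM26 (chr2:7634126-7637832), runs towards it on the other strand and ends 57 bp beyond it.

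**Figure D5:**
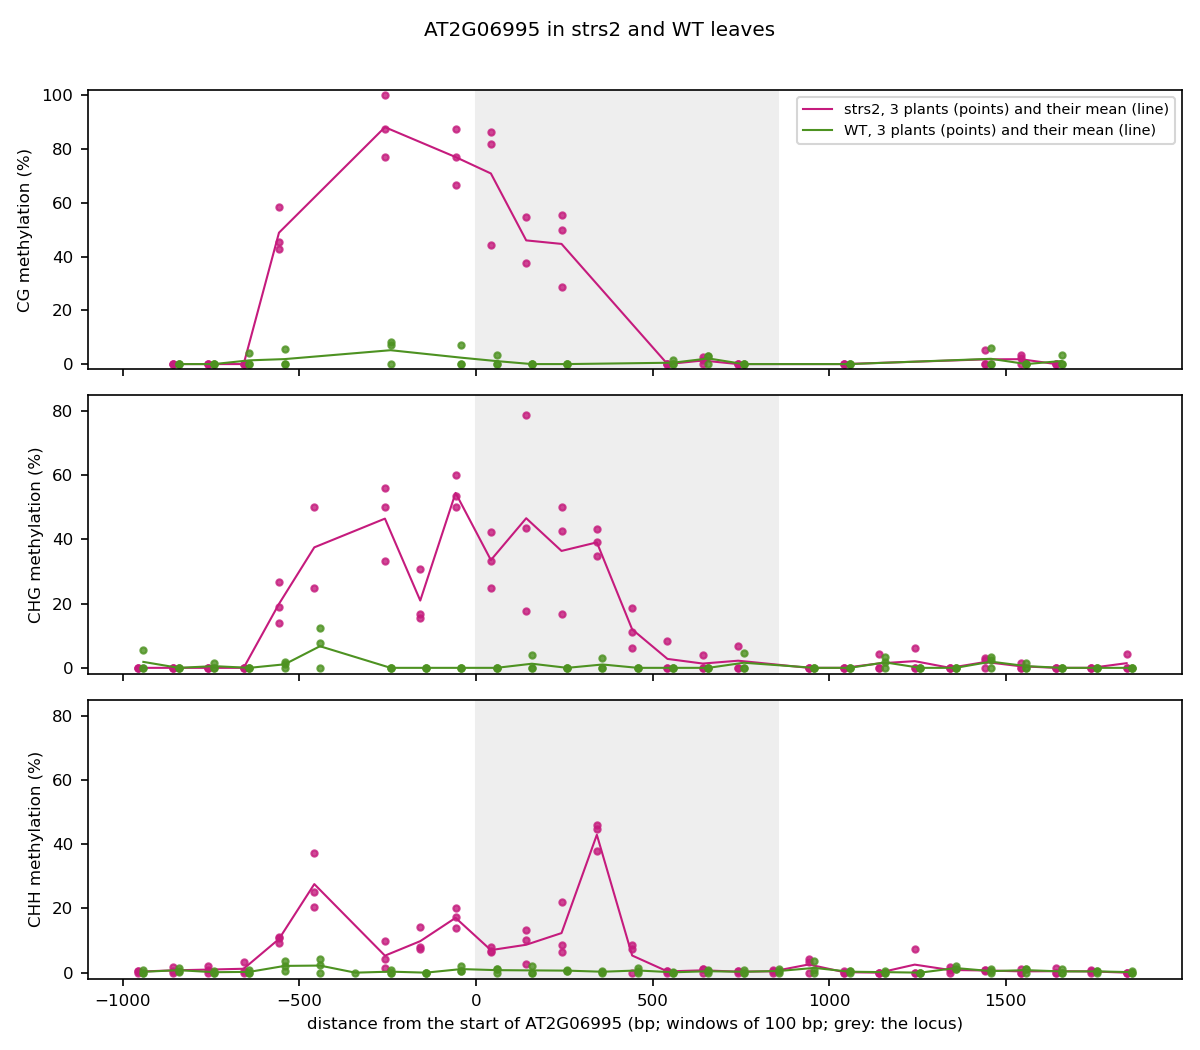
Methylation level in CG, CHG and CHH context (y axes, percent of calls) in windows of 100 bp around the start of AT2G06995 (x axis, bp), in 3 strs2 and 3 WT plants. Points are plants, shifted sideways by genotype, lines their means and the grey band the locus; the strs2 plants rise between about -600 and 499 bp, where WT plants stay near 0.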

How the data were processed

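The authors mapped mRNA-seq reads to TAIR10 with Subread 1.6.2 and counted them by strand over whole Araport11 loci, introns included; the file headers name featureCounts v1.5.0-p1. The deposited values are raw counts of 12 libraries. For MethylC-seq, they mapped the reads with Bismark 0.14.5 and Bowtie2 2.2.9, and the deposited lists hold methylated and total calls per cytosine with the methylated percent, which was left aside as it is computed from those calls.

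Loci of rRNA and of the organelle genomes were dropped (0.0521% to 2.56% of counts). Loci above 1 CPM in at least 3 libraries entered a quasi-likelihood fit in edgeR 4.0.16 with its F test (TMM, legacy = TRUE, 1 mean per group, no covariate, R 4.3.3) in the 10 libraries the authors kept. FDR is the Benjamini-Hochberg value over all 17986 loci. Ratios to the gene on the other strand were tested with limma 3.58.1 on log2 counts after adding 0.5. Methylation levels over cytosines read more than 3 times were tested with limma on the arcsine square-root scale, in loci with at least 30 calls in each plant. Steps were tested on simulated data. Without added calls, the methylation test made false calls at loci near 0, so the calls in CG context are given also with 0.5 calls added. The CHG and CHH calls of AT2G06995 are given without added calls.

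Members and lists were chosen with earlier results of these data known. Named members are, by rule, those called in a response to the trigger, the 3 with the smallest p in the other contrasts, the 10 with the highest RPKM, pairs whose ratio was called, the 8 pairs with the largest member share, the 5 with the highest WT level in each methylation context, those called in strs2 and the 3 on each side of the CPM level; others were named after their values were seen. Sequences, annotation and neighbours are from RefSeq (TAIR10.1), whose coordinates equal those of the files for all 70 members. Copies were searched with blastn 2.17.0. Library totals were 3665503 to 33081543 counts; intervals and floors cover counting error only. Replicates were separate plants. Alternatives included all 12 libraries, DESeq2 1.42.0, other filters, a replicate block and leaving out each library.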

Additional observations from a re-analysis of the deposited data

Results flagged for a closer look

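Among the 2953 loci numbered in the same way, those below the level of 1 CPM were also tested, without any filter on level, and these tests are outside the comparisons given above. Of the 1151 loci with any count, the members included, 3 below the level were called in a response to the trigger by edgeR. AT1G09783 (chr1:29400094-29401675), a lncRNA opposite AT1G78130, had 11, 15 and 3 counts in N+T leaves and 1, 2 and 0 counts in N leaves, with a fitted log2 fold change of 3.81 ± 1.02 (FDR = 0.0476). It had 15, 11 and 10 counts in P+T leaves and 2, 0 and 0 counts in P leaves, with a log2 fold change of 4.28 ± 0.90 (FDR = 0.0369), so every triggered library lay above every untriggered one.

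AT4G06780 (chr4:10169319-10170010), opposite AT4G18395, had 5, 5 and 3 counts in N+T leaves and no count in N leaves (fitted log2 fold change of 6.23, FDR = 0.0437). AT5G00525 (chr5:13691223-13692350) had no count in P+T leaves and 8, 14 and 35 counts in P leaves (fitted log2 fold change of -6.96, FDR = 0.0372). With one side at 0, the fitted values of these loci depend on the prior count and are no bound.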

How the results depend on the processing

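The number of members called moved with the processing more than the direction of single members did. Apart from DESeq2, the share of all loci called under the same setting is not given, so the counts do not single out the members. In N+T against N, where 12 were called, DESeq2 called 19 (27.1%, against 25.1% of all loci), a filter at 5 CPM left 11 members and called 0, all 12 libraries but N-r1 called 4, and leaving out single libraries gave 0 to 14. In P+T against P, where 6 were called, DESeq2 called 11 (15.7%, against 12.0% of all loci), the filter at 5 CPM 0, all 12 libraries 2, the replicate block 3, all 12 but N-r1 1, and leaving out single libraries 1 to 10. P against N had 4 calls by DESeq2 and 0 to 3 with a library left out; P+T against N+T had 0 to 1 with a library left out, and the interaction had 4 by DESeq2. Pair ratios in N+T against N gave 0 to 4 with a library left out, and those in P+T against P gave 1 under the block. Methylation calls fell to 0 in CG, CHG and CHH context under the block (FDR of AT2G06995 0.0594, 0.416 and 0.149), and ran from 1 to 4, 0 to 1 and 0 to 1 with a plant left out.

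Of the 4 genes tested as a check of the trigger, 1 was called in N+T against N, 3 by DESeq2, 0 with all 12 libraries but N-r1 and 0 to 2 with a library left out; in P+T against P 0 were called, 1 under each of DESeq2, legacy = FALSE, no CPM filter and the filter at 5 CPM, and 0 to 2 with a library left out. Of the known non-coding RNAs, 3 were called in N+T against N, 0 with all 12 libraries, 0 with all 12 but N-r1 and 0 to 4 with a library left out; in P+T against P 1 was called, 2 by DESeq2, 0 with all 12 libraries, with no CPM filter, under the block and with all 12 but N-r1, and 0 to 2 with a library left out. In P against N, the log2 fold changes of AT3G06365 and AT5G07745 were -5.03 and -6.92; they reversed to 0.40 and 0.66 without N-r1, and reached -6.01 and -7.925 without N-r2. Of 503 recalculations of 30 single results, 356 kept direction and call, 138 kept the direction only, 7 became called and 2 reversed. Same-numbered libraries of different groups deviated with correlations between -0.33 and 0.41, above 0 in 10 of 13 pairs and between 0.15 and 0.37 in the 6 pairs of replicate 1. As not every pair was above 0.1, the numbers were not taken to pair the samples; under the block, 4 of the 12 members called in N+T against N were not called. All 12 libraries but N-r1, the 0.5 added calls, the RPKM levels without N-r1 and the count ratios without N+T-r1 were chosen after seeing the data. The cause of these changes was not tested.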
